A study of Rattus norvegicus with 34 samples.

Results

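The genes described here are 40 cell division genes: cyclins and their kinase, mitotic kinases and checkpoint proteins, spindle and cytokinesis proteins, and proteins of DNA replication and nucleotide supply. They were chosen by name and not by a rule on their values, but with earlier results of these data known. A probe was found for 38 of the 40, out of 21915 genes and unnamed probes tested, while Top2a and Birc5 were not analysed here. The 38 genes had 39 probes, because Mcm5 had 2, which were averaged.

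RNA came from primary cortical neurons of Hooded Wistar rat embryos that had grown for 21 days on coverslips, and was hybridised to 34 Illumina RatRef-12 bead arrays. Neurons after severe neurotrauma gave 3 arrays at each of 8, 15, 24 and 48 h and 1 at 0 h, and neurons after mild neurotrauma gave 3 arrays at each of 0, 8, 15, 24 and 48 h. Uninjured neurons gave 6 control arrays, numbered 1 to 6. The protocols name a knife cut and a puff of oxygen that stretches the axon bundles as the injuries, without saying which was called mild. Each sample pooled 12 wells or more, the 3 cultures came from different dams, and no label ties a replicate number to a culture, so p-values measure the spread between these arrays only.

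The values used were deposited ratios, which carry no signal level. Each array's signal had been scaled to its own median and divided, probe by probe, by the mean of 3 arrays. That mean was control 1 to 3 for the control arrays and the arrays labelled mild 0 to 24 h. The severe arrays and the 3 labelled mild 48 h had been divided by the mean of those 3. Values of these sets were therefore never compared directly, only as changes over time within each set. Control replicates 1 to 3 and 4 to 6 are given apart. All values below are log2 ratios to the divisor (0 means equal to it) or log2 differences between groups, with the standard error (SE) after ±.

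The labels of 18 arrays are open to doubt, because a second deposited table lists the arrays in another order. If that order holds, the 3 mild 48 h arrays are controls 4 to 6, and the comparisons of severe neurotrauma below are with uninjured neurons. Arrays labelled control 4 to 6 then belong to mild 0 h, and each mild group from 0 to 24 h belongs to the next later time. Chip numbers come from the same labels, so which arrays shared a chip is open to the same doubt. Groups and chips are given here as labelled.

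A dividing cell makes cyclins that switch on cyclin-dependent kinases in turn, copies its DNA with the help of the Mcm helicase and the enzymes that supply nucleotides, and then separates its chromosomes on a spindle driven by kinesins and mitotic kinases. Most of these genes are switched on together by E2F and FOXM1 and the complexes that bind their promoters. Neurons have left the cell cycle, so in cortical cultures such transcripts are usually ascribed to glia, progenitors and other dividing cells. In pooled RNA, fewer cells of a type and less RNA per cell cannot be told apart.

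Over the whole series, 200 genes of ribosomes, proteasomes and the respiratory chain, called housekeeping genes here, had a median log2 ratio between -0.20 and 0.42 in every array but severe 48 h replicate 2, where it was -0.70. Markers of the labelled cell type were compared as ratios, and their signal levels were not analysed here. In the severe arrays the median of 11 neuron markers ranged from -1.73 to 0.43, that of 14 fibroblast and meningeal markers from -3.64 to -2.70, and that of 8 ependymal markers from 1.76 to 3.81. The same medians in mild 48 h arrays ranged from -0.06 to 0.02, from -0.03 to 0.07 and from -0.09 to 0.07.

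**Figure D1:**
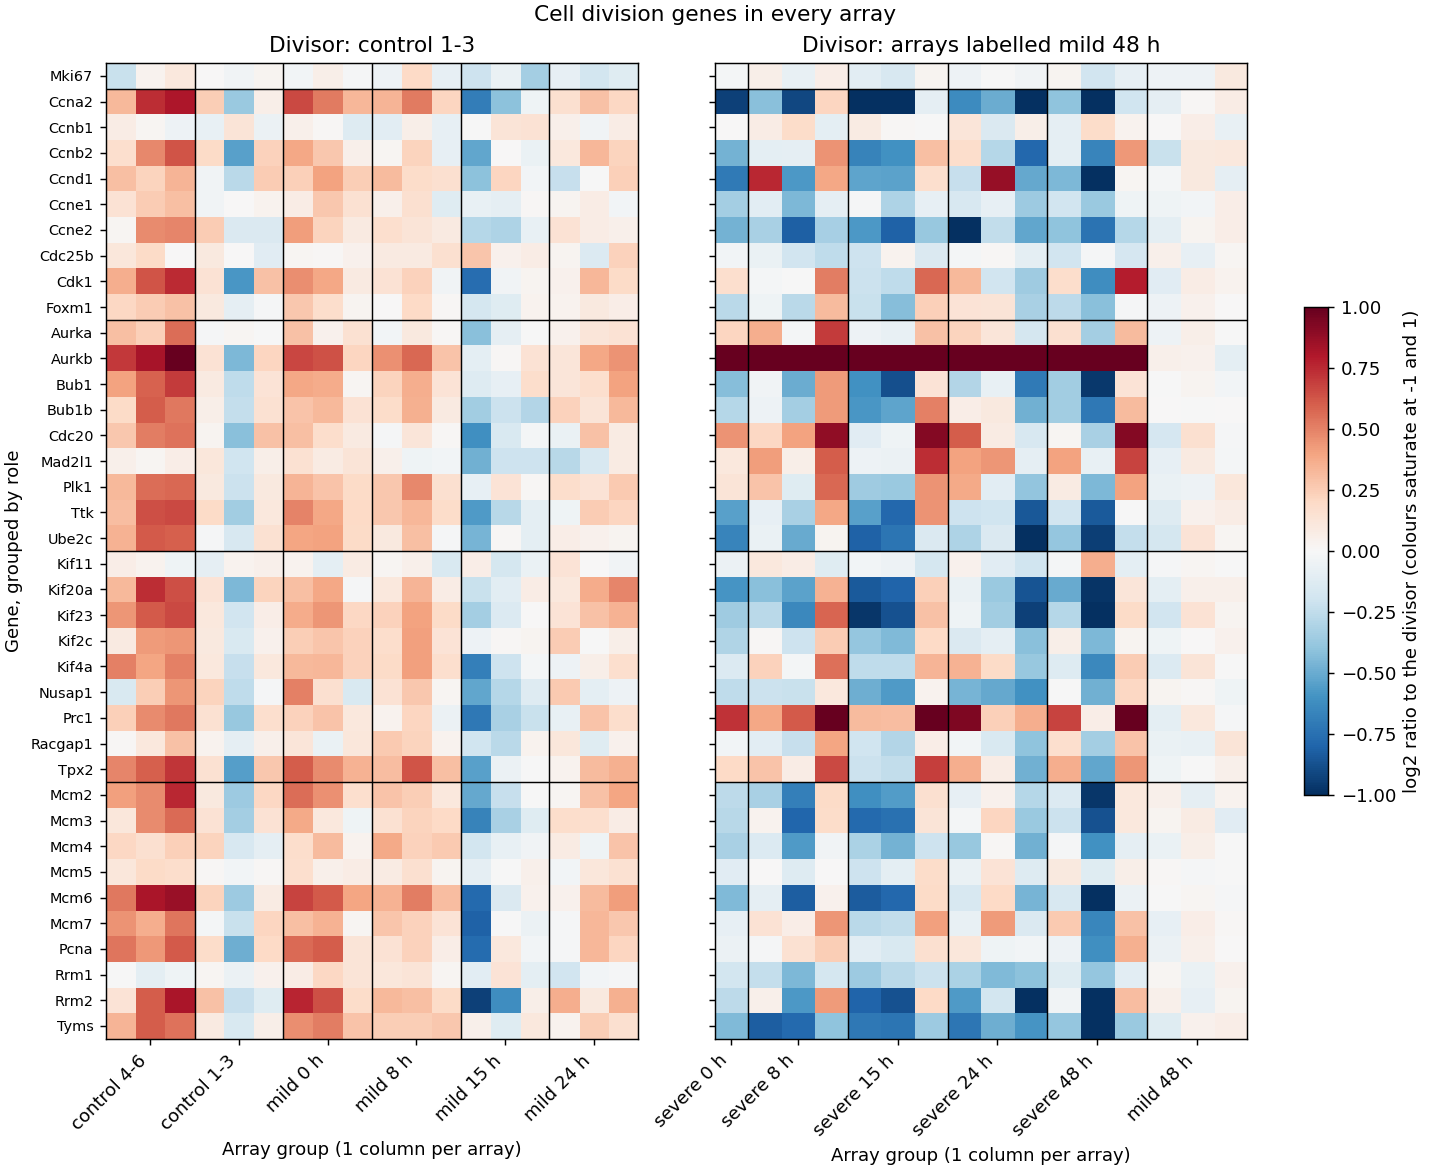
Log2 ratio of the 38 cell division genes (rows, grouped by role) in every array (columns, grouped by label), with the divisor above each panel. Colours saturate at -1 and 1. Aurkb was high in all severe arrays, while most other genes differed as much among severe arrays of one time as from the arrays labelled mild 48 h. In the other panel most genes were higher in control 4 to 6 than in control 1 to 3. Of the genes that passed there, Ccne1, Foxm1 and Kif2c turned lower when arrays were centred on housekeeping genes. Members that had not passed turned lower as well.

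The severe arrays were compared with those labelled mild 48 h at each time and as the average of the 4 times. Rose and fell mean higher or lower than in the arrays compared with, not a change over time. Aurkb, the kinase of the chromosomal passenger complex that corrects chromosome attachment and drives cytokinesis, was the 1 member that rose, and it did so at every time. Tyms, which makes thymidylate for DNA synthesis, fell at every time. Rrm1, the large subunit of ribonucleotide reductase, fell at 24 h and in the average, and Ccne2, a cyclin of S phase entry, fell in the average. In the average 4 of the 38 members passed, beside 14.5% of all features. Of these 1 was higher and 3 were lower, beside 5.74% of all features higher and 8.73% lower. At single times 2 passed at 8 h (background 8.60%), 2 at 15 h (10.8%), 3 at 24 h (9.19%) and 2 at 48 h (11.2%), a share below the background each time. The other 34 members passed in no severe comparison.

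The log2 ratio of Aurkb was 1.83, 2.91 and 2.22 at 8 h, 2.75, 2.79 and 2.14 at 15 h, 2.06, 1.43 and 2.52 at 24 h and 2.92, 2.33 and 2.36 at 48 h. It was 0.05, 0.05 and -0.10 in the arrays labelled mild 48 h. All 12 severe arrays lay above all 3 of those, and the groups did not overlap. Such separation was not counted over all features, here or for the genes below. The difference was 2.32 ± 0.31 at 8 h (limma, adjusted p = 0.000403), 2.56 ± 0.31 at 15 h, 2.00 ± 0.31 at 24 h and 2.54 ± 0.31 at 48 h. The average was 2.36 ± 0.24, or 5.12-fold (adjusted p = 2.82e-05). The call held under all 24 alternatives to the average. Between arrays that shared a chip by their labels (1 severe and 1 mild array each), Aurkb was higher by 1.93 at 8 h, 2.70 at 15 h and 2.01 at 24 h. All severe 48 h arrays, and replicates 2 and 3 at 8, 15 and 24 h, were labelled as on chip 3. That chip held no mild 48 h array, so no pair shared a chip at 48 h. Chip and injury were therefore partly tied together.

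Genes tied to Aurkb by function, sequence or position, chosen after its values were seen, did not pass in the severe average. The passenger complex proteins Incenp and Cdca8 differed by -0.08 ± 0.12 and 0.15 ± 0.25 in the severe average. The related kinases Aurka and Aurkc differed by 0.13 ± 0.15 and 0.30 ± 0.14. The measured genes Borcs6 and Ctc1, which lie close to Aurkb on chromosome 10 (RefSeq, GRCr8), differed by -0.06 ± 0.11 and 0.17 ± 0.13. Between control 4 to 6 and control 1 to 3, where Aurkb passed too, Incenp, Cdca8 and Aurka were higher by 0.35 ± 0.08, 0.53 ± 0.12 and 0.36 ± 0.10. These passed, and Aurkc, Borcs6 and Ctc1 did not. Aurkb was read by a single probe.

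Tyms stood at -0.83, -0.77 and -0.40 at 8 h, -0.71, -0.73 and -0.36 at 15 h, -0.72, -0.49 and -0.59 at 24 h and -0.39, -1.01 and -0.37 at 48 h, against -0.12, 0.05 and 0.07 in the arrays labelled mild 48 h. Again all 12 severe arrays lay beyond the 3 mild ones. Its difference ranged from -0.67 ± 0.17 at 8 h (limma, adjusted p = 0.0298) to -0.59 ± 0.17 at 48 h (adjusted p = 0.0456). The average fell by 0.61 ± 0.14 (adjusted p = 0.00776). That call was lost without mild 48 h replicate 3, where the difference was -0.58. A chip block ended the call at each single time (-0.81 at 8 h to -0.71 at 15 h), as did leaving out any 1 of the 3 mild arrays. So did leaving out replicate 1 or 2 of severe 8 h or 15 h, any array of severe 24 h, or severe 48 h replicate 2, each for its own time. At 48 h the call was also lost after quantile normalization (-0.37), with housekeeping centring (-0.30), with robust eBayes and in the fit of only the compared arrays, and at 24 h with robust eBayes.

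Rrm1 stood at -0.24, -0.45 and -0.18 at 8 h, -0.37, -0.27 and -0.22 at 15 h, -0.32, -0.44 and -0.41 at 24 h and -0.12, -0.39 and -0.10 at 48 h, against 0.02, -0.07 and 0.04 in the arrays labelled mild 48 h. The 12 severe values all lay below the 3 mild ones, by less than for Tyms. The difference was -0.39 ± 0.09 at 24 h (limma, adjusted p = 0.0151) and -0.29 ± 0.07 in the average (adjusted p = 0.0135). Both calls were lost with the chip as a block (-0.37 and -0.28), after quantile normalization (-0.31 and -0.23), with housekeeping centring (-0.30 and -0.16), and without mild 48 h replicate 1 or replicate 3. That at 24 h was lost without severe 24 h replicate 3 as well.

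Ccne2 stood at -0.32, -0.81 and -0.33 at 8 h, -0.58, -0.81 and -0.38 at 15 h, -1.0, -0.25 and -0.52 at 24 h and -0.41, -0.74 and -0.28 at 48 h, against -0.10, 0.03 and 0.07 in the arrays labelled mild 48 h. No severe array overlapped the mild ones. Only its average passed, at -0.53 ± 0.15 (limma, adjusted p = 0.0355). A chip block ended the call (-0.62), as did housekeeping centring (-0.40), and so did leaving out any 1 of the 3 mild arrays, or severe 15 h replicate 1 or 2.

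**Figure D2:**
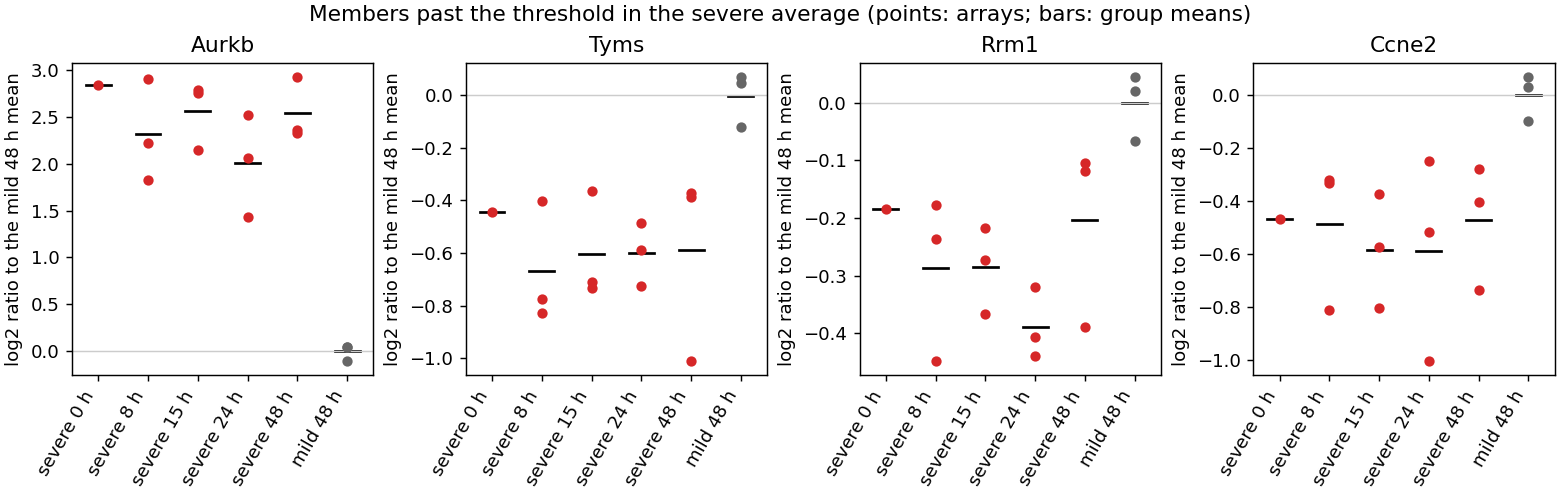
Log2 ratio to the mean of the arrays labelled mild 48 h for Aurkb, Tyms, Rrm1 and Ccne2, by time after severe neurotrauma. Points are arrays and bars are group means (3 arrays each, 1 at severe 0 h), and each panel has its own scale. The 12 severe arrays at 8 to 48 h lay above the mild arrays for Aurkb and below them for the other 3 genes.

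The median difference of the members in the severe average was -0.13, beside 0.01 for all features, and 12 of the 38 lay above 0. With housekeeping centring that median was -0.0037 and the median of all features 0.14. No member, and no feature, passed a test for any change among the 4 severe times, and no member reached an unadjusted p under 0.05 there, beside 3.69% of all features.

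By role, the cyclins and their kinase had a median difference of -0.14 in the severe average, with 2 of 9 above 0. Ccna2, the cyclin of S phase and G2, had the lowest difference of all members, -0.68 ± 0.31, and did not pass (adjusted p = 0.207). Its values were -0.41, -0.91 and 0.22 at 8 h, -1.24, -1.20 and -0.09 at 15 h, -0.63, -0.50 and -1.40 at 24 h and -0.40, -1.41 and -0.20 at 48 h, against -0.09, 0.01 and 0.07 in the arrays labelled mild 48 h. In 10 of 12 severe arrays it lay below all mild ones and in 1 above them, so the groups overlapped. Ccnb2, Ccne1, the Cdk-activating phosphatase Cdc25b and the transcription factor Foxm1 differed by -0.15 ± 0.26, -0.19 ± 0.09, -0.11 ± 0.06 and -0.10 ± 0.15.

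Cdk1, the kinase that starts mitosis, was at -0.02, 0.00 and 0.51 at 8 h, -0.21, -0.25 and 0.57 at 15 h, 0.33, -0.19 and -0.36 at 24 h and 0.18, -0.62 and 0.79 at 48 h, against -0.11, 0.07 and 0.03 in the arrays labelled mild 48 h. It lay above them in 5 severe arrays and below them in 5, and its average difference was 0.06 ± 0.26. Ccnd1, the cyclin that answers growth signals in G1, was at 0.75, -0.57 and 0.38 at 8 h, -0.53, -0.54 and 0.17 at 15 h, -0.23, 0.87 and -0.51 at 24 h and -0.45, -1.07 and 0.02 at 48 h, against -0.02, 0.10 and -0.09. Its severe arrays lay on either side of the mild ones (average -0.14 ± 0.32).

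Ccnb1, a partner of Cdk1, stayed between -0.14 and 0.18 in all severe arrays: 0.08, 0.18 and -0.10 at 8 h, 0.08, 0.01 and -0.01 at 15 h, 0.12, -0.14 and 0.06 at 24 h and -0.09, 0.18 and 0.03 at 48 h, against 0.01, 0.07 and -0.08 in the arrays labelled mild 48 h (average 0.04 ± 0.07). Mki67, the proliferation marker Ki-67, was as flat, at 0.06, -0.07 and 0.07 at 8 h, -0.10, -0.16 and 0.03 at 15 h, -0.05, -0.01 and -0.03 at 24 h and 0.03, -0.19 and -0.08 at 48 h, against -0.05, -0.05 and 0.10 (average -0.04 ± 0.06). Whether these probes were above background was not checked, because signal levels were not used here.

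The mitotic kinases and checkpoint genes had a median of 0.03 with 5 of 9 above 0. Besides Aurkb, the largest differences were those of Ube2c, the ubiquitin carrier that ends mitosis, at -0.44 ± 0.21, Bub1, a spindle checkpoint kinase, at -0.31 ± 0.25, and Cdc20 and Mad2l1, activator and inhibitor of the anaphase complex, at 0.29 ± 0.27 and 0.29 ± 0.19. None of these passed. Aurka, Plk1, Bub1b and Ttk differed by 0.13 ± 0.15, 0.03 ± 0.22, -0.14 ± 0.25 and -0.26 ± 0.25.

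Among spindle and cytokinesis genes the median was -0.07 with 3 of 9 above 0. Prc1, which bundles the central spindle, had the second highest difference of all members, 0.62 ± 0.25 (adjusted p = 0.138). Its values were 0.39, 0.61 and 1.16 at 8 h, 0.32, 0.31 and 1.02 at 15 h, 0.93, 0.24 and 0.36 at 24 h and 0.67, 0.07 and 1.38 at 48 h, against -0.10, 0.10 and -0.01 in the arrays labelled mild 48 h. It lay above all mild arrays in 11 of 12 severe ones and did not pass. The kinesins of cytokinesis Kif20a and Kif23 differed by -0.39 ± 0.27 and -0.37 ± 0.33, and Kif23 ranged from -1.19 to 0.58 among the severe arrays. The spindle kinesin Kif11, the centromere kinesin Kif2c and the chromosome kinesin Kif4a differed by -0.02 ± 0.09, -0.13 ± 0.15 and 0.02 ± 0.20. The spindle assembly factor Tpx2, the spindle protein Nusap1 and Racgap1, a partner of Kif23, differed by 0.12 ± 0.24, -0.27 ± 0.14 and -0.07 ± 0.15.

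Replication and nucleotide supply genes had the lowest median of the roles with several genes, -0.27, with 2 of 10 above 0. Mcm2, a subunit of the replicative helicase, was at -0.33, -0.68 and 0.19 at 8 h, -0.61, -0.56 and 0.16 at 15 h, -0.08, 0.04 and -0.29 at 24 h and -0.14, -0.97 and 0.10 at 48 h, against 0.05, -0.09 and 0.03 in the arrays labelled mild 48 h (average -0.26 ± 0.23). Pcna, the sliding clamp of DNA polymerase, was at -0.02, 0.16 and 0.25 at 8 h, -0.11, -0.15 and 0.16 at 15 h, 0.11, -0.04 and -0.03 at 24 h and -0.05, -0.61 and 0.36 at 48 h, against -0.06, 0.05 and 0.00 (average 0.00 ± 0.14). The helicase subunits Mcm3, Mcm4, Mcm5, Mcm6 and Mcm7 differed by -0.26 ± 0.25, -0.27 ± 0.14, -0.02 ± 0.08, -0.34 ± 0.27 and 0.06 ± 0.20. Rrm2, the small subunit of ribonucleotide reductase, differed by -0.35 ± 0.30.

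**Figure D3:**
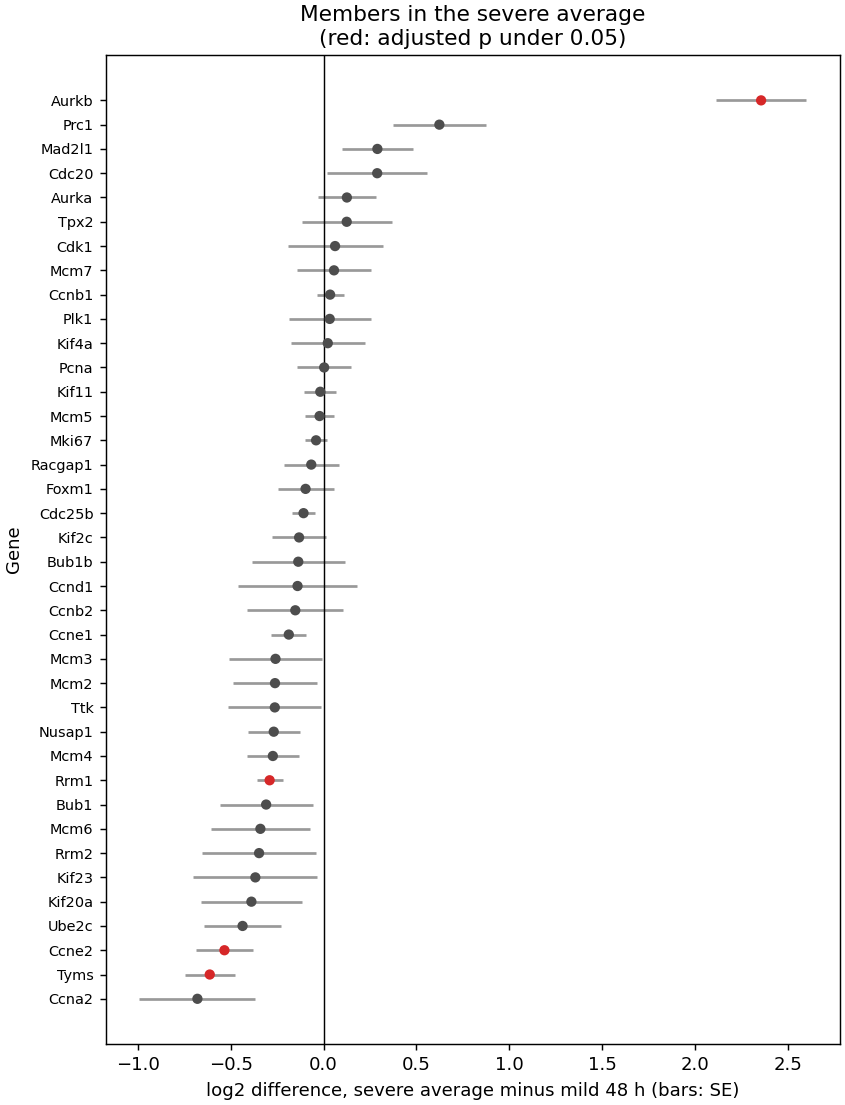
Log2 difference of each member between the average of severe 8 to 48 h and the arrays labelled mild 48 h (points, with SE bars). The 4 genes that passed (adjusted p under 0.05) are red. Aurkb lay at 2.36 and all other members between -0.68 and 0.62.

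The members' median varied from array to array within the severe group. It was -0.03, -0.23 and 0.33 in the 3 arrays at 8 h, -0.33, -0.40 and 0.19 at 15 h, -0.04, -0.06 and -0.40 at 24 h, and -0.09, -0.61 and 0.11 at 48 h. The neuron markers had medians of 0.43, -0.33 and 0.33 in the same arrays at 8 h, -1.48, -1.38 and 0.23 at 15 h, 0.09, 0.34 and -1.40 at 24 h, and -1.56, -1.73 and 0.13 at 48 h. Both replicates 1 and 2 at 15 h and at 48 h, and replicate 3 at 24 h, had a neuron marker median below -1 and a member median below 0. The member median was also below 0 in replicates 1 and 2 at 8 h and at 24 h. There the neuron marker median lay between -0.33 and 0.43. The lowest member median was that of severe 48 h replicate 2, the array with the low housekeeping median. Without that array 5 members passed in the severe average, and without mild 48 h replicate 1 or replicate 3, 2 and 1 did. The part of cell composition or of that array in the members' values was not tested.

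Other cell types' markers moved in the severe average too, beside 5.74% of all features higher and 8.73% lower. Of the 14 fibroblast and meningeal markers 12 fell (median -2.89), all 8 ependymal markers rose (3.04), 7 of 10 astrocyte markers rose (1.05), 5 of 10 oligodendrocyte markers rose (1.29) and 5 of 9 neural progenitor markers rose (0.24). Of 8 oligodendrocyte progenitor markers 3 rose and 1 fell, 1 of 11 neuron markers and 2 of 8 endothelial markers fell, and no microglial marker of 10 passed. Their part in the Aurkb, Tyms, Rrm1 and Ccne2 differences was not tested.

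Other genes of the cell cycle were taken from 4 lists that share no gene with the members. Their counts in the severe average stand beside 5.74% of all features higher and 8.73% lower. Of 39 other replication and S phase genes 4 fell (median -0.15), led by Rfc4, a clamp loader subunit, at -0.73 ± 0.20, Prim1, the catalytic primase subunit, at -0.72 ± 0.20, and Orc4, of the origin recognition complex, at -0.67 ± 0.20. Of 50 other mitosis and cytokinesis genes 4 fell and 1 rose (median -0.03). Stmn1, a microtubule destabiliser that neurons also express, fell by 1.35 ± 0.41, Cks1b, a Cdk subunit, by 0.99 ± 0.22, and Fbxo5, an inhibitor of the anaphase complex, by 0.68 ± 0.14. The mitotic kinase Nek2 rose by 0.23 ± 0.06.

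Of 21 G1 regulators 1 rose and 2 fell in the severe average (median -0.05), beside 5.74% of all features higher and 8.73% lower. E2f5, an E2F factor, rose by 0.71 ± 0.17, while Mycn, a Myc family factor, fell by 1.40 ± 0.41 and Skp2, a ubiquitin ligase subunit that targets Cdk inhibitors, by 0.20 ± 0.06. Of 16 Cdk inhibitors and arrest genes 3 fell (median -0.12). These were Gas6, a growth arrest-specific ligand, at -1.46 ± 0.20, Gadd45b, a stress-induced gene, at -0.69 ± 0.10, and Ccng2, a cyclin linked to arrest, at -0.57 ± 0.11.

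At severe 0 h there was 1 array and no test. Aurkb was at 2.84, within the range of the later severe arrays, and Tyms, Rrm1 and Ccne2 were at -0.44, -0.18 and -0.47. Prc1 was at 0.72 and Ccna2 at -0.94. Cdk1, Ccnd1, Mcm2 and Pcna were at 0.17, -0.71, -0.26 and -0.06, and Mki67 and Ccnb1 at -0.02 and 0.00.

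The arrays labelled control 4 to 6 were set against control 1 to 3, a comparison of arrays with the same treatment label. Here 18 of the 38 members passed and all 18 were higher in control 4 to 6, beside 11.8% of all features (11.5% higher). The median difference of the members was 0.46, beside 0.04 for all features, and 36 of 38 lay above 0. The calls depended on the processing: none passed after quantile normalization (members' median 0.22), with the chip as a block (0.30) or in a fit of all 34 arrays, which leaves each difference as it was. They depended on single arrays as well, with 3 calls left without control 1 to 3 replicate 2, and 6 and 4 without control 4 to 6 replicate 5 and replicate 6. After centring on housekeeping genes 3 members were called higher and 5 lower, with a median of 0.13 for the members and -0.29 for all features. The share of all features called in each direction after centring is not given here, so these counts stand without a background.

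By role the called genes were 3 of 9 cyclin genes, 7 of 9 mitotic kinase and checkpoint genes, 5 of 9 spindle genes and 3 of 10 replication genes. Aurkb, with 0.71, 0.83 and 1.03 in the arrays labelled control 4 to 6, against 0.15, -0.45 and 0.21 in control 1 to 3, differed by 0.89 ± 0.15 (limma, adjusted p = 0.00508). Mcm6 had 0.52, 0.82 and 0.86 in control 4 to 6 and 0.22, -0.37 and 0.08 in control 1 to 3, a difference of 0.75 ± 0.17 (adjusted p = 0.0136). Tyms had 0.34, 0.61 and 0.55 in control 4 to 6 and 0.09, -0.15 and 0.06 in control 1 to 3, a difference of 0.50 ± 0.09 (adjusted p = 0.00537). For all 3 genes each array of control 4 to 6 lay above each of control 1 to 3. That also held for members that did not pass, among them Cdk1 and Pcna.

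The cyclin Ccna2 had 0.33, 0.74 and 0.81 in control 4 to 6 and 0.24, -0.37 and 0.06 in control 1 to 3, a difference of 0.65 ± 0.16. Ccne1, a cyclin of S phase entry, had 0.15, 0.26 and 0.30 in control 4 to 6 and -0.04, 0.00 and 0.04 in control 1 to 3, and Foxm1, a transcription factor of mitotic genes, had 0.21, 0.25 and 0.29 in control 4 to 6 and 0.10, -0.09 and -0.01 in control 1 to 3. Their differences of 0.23 ± 0.07 and 0.25 ± 0.08 turned to -0.09 and -0.07 with housekeeping centring. Control 1 to 3 replicate 2 was the lowest of the 6 for Ccna2 and Foxm1.

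Of the mitotic kinases, Plk1, which acts from mitotic entry to cytokinesis, had 0.33, 0.56 and 0.57 in control 4 to 6 and 0.10, -0.21 and 0.10 in control 1 to 3 (0.49 ± 0.10). Aurka, the spindle pole kinase, had 0.30, 0.24 and 0.56 in control 4 to 6 and -0.01, 0.02 and -0.01 in control 1 to 3 (0.36 ± 0.10). Both were higher in each array of control 4 to 6. The checkpoint kinases followed: Bub1 had 0.40, 0.59 and 0.70 in control 4 to 6 and 0.09, -0.25 and 0.13 in control 1 to 3 (0.58 ± 0.12). Bub1b had 0.19, 0.61 and 0.52 in control 4 to 6 and 0.06, -0.24 and 0.15 in control 1 to 3 (0.45 ± 0.11). Ttk had 0.31, 0.64 and 0.66 in control 4 to 6 and 0.19, -0.35 and 0.10 in control 1 to 3 (0.55 ± 0.14). Control 4 to 6 replicate 4 was the lowest of its group for these 3 genes. Ube2c had 0.35, 0.62 and 0.60 in control 4 to 6 and -0.01, -0.16 and 0.15 in control 1 to 3 (0.53 ± 0.11).

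Among spindle genes Tpx2, an activator of Aurora A, had 0.49, 0.59 and 0.72 in control 4 to 6 and 0.15, -0.55 and 0.27 in control 1 to 3 (0.64 ± 0.17). Kif20a had 0.32, 0.74 and 0.64 in control 4 to 6 and 0.14, -0.45 and 0.23 in control 1 to 3 (0.60 ± 0.16). Kif23 had 0.44, 0.62 and 0.66 in control 4 to 6 and 0.10, -0.19 and 0.07 in control 1 to 3 (0.58 ± 0.10). In each of these genes replicate 2 was the low array of control 1 to 3. Kif4a, a chromosome-bound kinesin, had 0.50, 0.40 and 0.50 in control 4 to 6 and 0.10, -0.23 and 0.10 in control 1 to 3 (0.48 ± 0.13). Kif2c, which depolymerises microtubules at centromeres, had 0.09, 0.43 and 0.45 in control 4 to 6 and 0.10, -0.16 and 0.05 in control 1 to 3 (0.32 ± 0.10). With housekeeping centring the difference of Kif2c was -0.0020. The helicase subunit Mcm2 had 0.41, 0.47 and 0.75 in control 4 to 6 and 0.09, -0.37 and 0.21 in control 1 to 3 (0.57 ± 0.15).

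Of the genes followed whatever they did, Cdk1 had 0.36, 0.63 and 0.75 in control 4 to 6 and 0.14, -0.58 and 0.30 in control 1 to 3, a difference of 0.63 ± 0.20 that did not pass (adjusted p = 0.0509). Pcna had 0.53, 0.43 and 0.61 in control 4 to 6 and 0.19, -0.49 and 0.20 in control 1 to 3 (0.56 ± 0.20, adjusted p = 0.0697). In both genes control 1 to 3 replicate 2 was the lowest array. Ccnd1 had 0.30, 0.22 and 0.34 in control 4 to 6 and -0.03, -0.27 and 0.26 in control 1 to 3 (0.30 ± 0.14). Mki67, with -0.22, 0.03 and 0.11 in control 4 to 6 and 0.01, -0.04 and 0.03 in control 1 to 3, and Ccnb1, with 0.08, 0.02 and -0.05 in control 4 to 6 and -0.07, 0.13 and -0.06 in control 1 to 3, differed by -0.03 ± 0.09 and 0.02 ± 0.07. All told, the 20 members that did not pass differed by -0.05 (Rrm1) to 0.63 (Cdk1).

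Housekeeping genes and markers moved with this comparison. The housekeeping median was 0.31, 0.33 and 0.32 in control 4 to 6, against 0.01, -0.18 and 0.14 in control 1 to 3. The members' median was 0.25, 0.47 and 0.54 in control 4 to 6, against 0.10, -0.23 and 0.07 in control 1 to 3. Array by array, the members minus housekeeping genes gave -0.05, 0.14 and 0.22 in control 4 to 6, against 0.09, -0.04 and -0.07 in control 1 to 3, so the groups overlapped on that scale. The median of 10 microglial markers was 0.98, 0.82 and 0.79 in control 4 to 6, against 0.03, -0.16 and 0.19 in control 1 to 3, and 5 of the 10 rose. Of 14 fibroblast and meningeal markers 5 rose and 1 fell, and 3 of 11 neuron markers rose. Their part in the members' difference was not tested. On the 1 chip that held arrays of both groups, the members' median difference was 0.33, with 36 of 38 above 0. Of control 4 to 6 only replicate 4 was on it. Replicates 5 and 6 were on chip 3, which held no array of control 1 to 3.

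**Figure D4:**
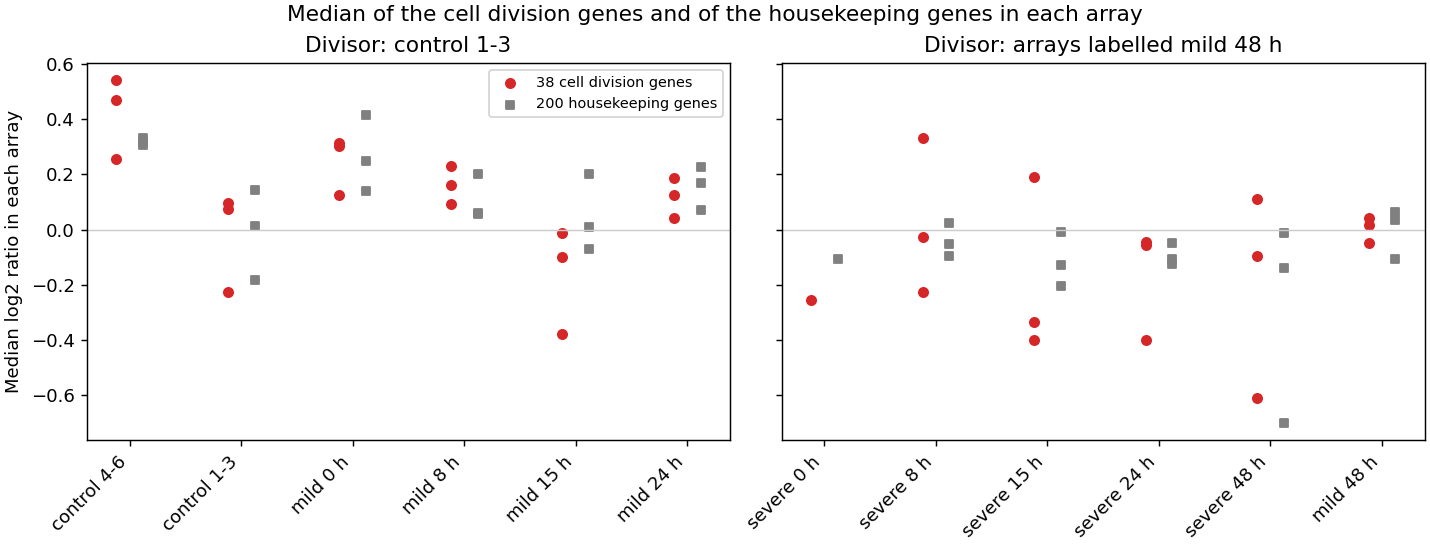
Median log2 ratio of the 38 cell division genes (circles) and of 200 housekeeping genes (squares) in each array, by group and divisor. In control 4 to 6 both medians lay above those of control 1 to 3. At severe 48 h the lowest circle and the lowest square are the same array.

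The related lists moved the same way between the controls, where 11.5% of all features were called higher. Of the 50 other mitosis and cytokinesis genes 29 rose (median 0.36), and of the 39 other replication and S phase genes 19 rose (median 0.33), with none lower. G1 regulators rose in 4 of 21 (0.21) and Cdk inhibitors and arrest genes in 3 of 16 (0.17). Among them were Ccng1 at 0.48 ± 0.11 and Cdkn1a at 0.27 ± 0.08.

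Promoters of members that passed are shown because these genes moved together between the controls (Mcm6, Plk1, Kif20a) or fell in the severe average (Rrm1). The RefSeq windows (GRCr8) are the 250 bases before the gene start, 5′ to 3′ on the gene's strand, with capitals on 3 motifs: CCAAT, the CHR motif TTTGAA, and the E2F motifs TTCCCGC or else TTGGCGC or else TTCGCGC or else TTGCCGC. Motifs were searched on both strands, and E2F matches may overlap each other.
Rrm1, chr1:166235654-166235903, plus strand: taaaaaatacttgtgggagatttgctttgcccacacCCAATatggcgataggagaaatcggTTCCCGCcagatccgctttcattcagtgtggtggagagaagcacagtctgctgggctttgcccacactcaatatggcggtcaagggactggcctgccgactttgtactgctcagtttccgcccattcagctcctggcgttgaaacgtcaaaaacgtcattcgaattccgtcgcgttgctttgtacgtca
Mcm6, chr13:42404353-42404602, minus strand: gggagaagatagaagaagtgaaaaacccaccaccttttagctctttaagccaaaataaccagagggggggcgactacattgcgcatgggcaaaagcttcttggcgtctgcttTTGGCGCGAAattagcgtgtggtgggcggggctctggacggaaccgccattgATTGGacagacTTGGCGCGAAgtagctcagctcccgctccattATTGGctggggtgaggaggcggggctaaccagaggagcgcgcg
Plk1, chr1:186147408-186147657, plus strand: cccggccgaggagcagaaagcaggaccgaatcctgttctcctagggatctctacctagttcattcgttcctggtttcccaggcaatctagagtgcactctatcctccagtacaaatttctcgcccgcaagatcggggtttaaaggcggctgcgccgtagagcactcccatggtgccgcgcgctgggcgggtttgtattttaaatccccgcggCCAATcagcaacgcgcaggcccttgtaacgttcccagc
Kif20a, chr18:26504172-26504421, plus strand: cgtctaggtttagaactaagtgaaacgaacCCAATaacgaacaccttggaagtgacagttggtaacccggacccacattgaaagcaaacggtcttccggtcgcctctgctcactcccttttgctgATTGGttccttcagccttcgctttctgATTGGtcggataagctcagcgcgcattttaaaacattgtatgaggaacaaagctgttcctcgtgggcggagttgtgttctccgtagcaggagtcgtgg

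A window was found for 28 of the 38 members, among 33469 windows in the table. CCAAT stood in 20 of the 28 (71.4%) and in 34.0% of all windows. An E2F motif stood in 9 (32.1%) and in 7.59% of all, and the CHR motif in 7 (25%) and in 16.2% of all. Rrm1 and Mcm6 held both CCAAT and E2F matches, and Plk1 and Kif20a held CCAAT alone. Of the genes that fell in the severe average, Tyms held an E2F match without CCAAT. These are matches of letters, not evidence of binding.

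After mild neurotrauma the members were compared with control 1 to 3 at 0, 8, 15 and 24 h. These comparisons and the one between the controls share control 1 to 3. Tyms was the 1 member that passed: at 0 h it was 0.46, 0.51 and 0.29, against 0.09, -0.15 and 0.06 in control 1 to 3. Its difference was 0.42 ± 0.09 (limma, adjusted p = 0.0207), and the groups did not overlap. Members that did not pass were separated as well, among them Ccna2, Aurkb and Mcm6. Such separation was not counted over all features. The call was lost after quantile normalization (0.28), with housekeeping centring (0.15), and at an unchanged difference with the replicate block and in the fit of all 34 arrays. It was also lost without mild 0 h replicate 1 (0.40) or 2 (0.38), or without control 1 to 3 replicate 2 (0.35). Without mild 0 h replicate 3, 8 members passed, and without control 1 to 3 replicate 3, 3 did. At 0 h 4.77% of all features passed. No member passed at 8, 15 or 24 h, where 0.119%, 0% and 0% of all features did. An unadjusted p under 0.05 was reached by 9, 9 and 4 members, beside 10.9%, 5.27% and 8.74% of all features.

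The median difference of the members was 0.26 at 0 h, 0.19 at 8 h, -0.17 at 15 h and 0.14 at 24 h, beside 0.03, 0.02, 0.01 and 0.04 for all features. Above 0 lay 37, 35, 5 and 35 of the 38. With housekeeping centring the 0 h median was -0.02, beside -0.24 for all features. On the chips that held both groups, the 15 h median was -0.20 on one and 0.07 on the other, so its direction did not hold within chips.

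In the test for any change among the 4 mild times, 7 members passed, beside 2.06% of all features. These were Ccna2, Bub1b, Kif23, Kif4a, Mcm6, Rrm2 and Ttk, and each had its highest mean at 0 h and its lowest at 15 h. Ccna2 was 0.66, 0.52 and 0.33 at 0 h, 0.34, 0.52 and 0.22 at 8 h, -0.69, -0.41 and -0.05 at 15 h and 0.16, 0.29 and 0.21 at 24 h (limma, adjusted p = 0.023). All its 15 h arrays lay below all arrays of the other times. Mcm6 was 0.67, 0.61 and 0.40 at 0 h, 0.35, 0.51 and 0.31 at 8 h, -0.78, -0.14 and 0.04 at 15 h and 0.04, 0.31 and 0.41 at 24 h (adjusted p = 0.0414). Rrm2 was 0.76, 0.64 and 0.19 at 0 h, 0.32, 0.30 and 0.19 at 8 h, -0.93, -0.62 and 0.06 at 15 h and 0.36, 0.10 and 0.36 at 24 h (adjusted p = 0.0416). In Mcm6 and Rrm2 the lowest value was that of 15 h replicate 1.

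Bub1b was 0.28, 0.33 and 0.14 at 0 h, 0.18, 0.35 and 0.09 at 8 h, -0.35, -0.21 and -0.29 at 15 h and 0.23, 0.13 and 0.33 at 24 h (limma, adjusted p = 0.0252). Its 15 h arrays were close together and below all others. Kif23 was 0.37, 0.44 and 0.21 at 0 h, 0.23, 0.41 and 0.19 at 8 h, -0.34, -0.14 and 0.01 at 15 h and 0.14, 0.29 and 0.35 at 24 h (adjusted p = 0.0328). Kif4a was 0.32, 0.33 and 0.23 at 0 h, 0.19, 0.41 and 0.17 at 8 h, -0.68, -0.21 and -0.02 at 15 h and -0.05, 0.06 and 0.17 at 24 h (adjusted p = 0.0402). Ttk was 0.49, 0.38 and 0.20 at 0 h, 0.27, 0.33 and 0.18 at 8 h, -0.56, -0.28 and -0.10 at 15 h and -0.04, 0.25 and 0.21 at 24 h (adjusted p = 0.0394). No member passed without mild 0 h replicate 1, mild 0 h replicate 2 or mild 15 h replicate 1. Without single arrays of 8 h, 2 or 3 passed, and 3 without mild 24 h replicate 2, while 11 passed without mild 0 h replicate 3. None passed with the replicate block or in the fit of all 34 arrays, 3 with the chip as a block, 3 with housekeeping centring and 4 after quantile normalization.

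**Figure D5:**
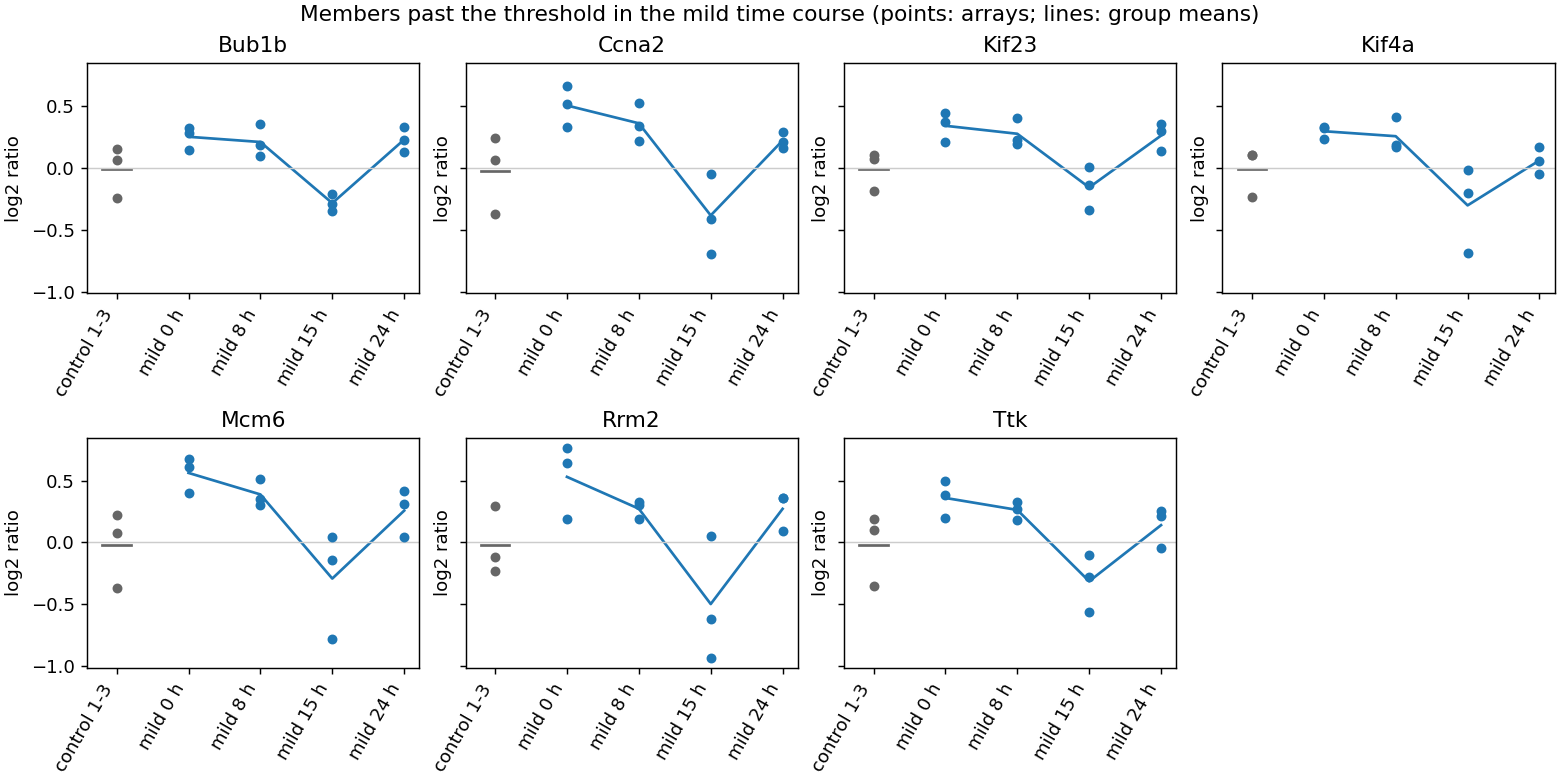
Log2 ratio to the mean of control 1 to 3 for the 7 members that passed the test across mild times, in control 1 to 3 and at 0, 8, 15 and 24 h after mild neurotrauma (points: arrays, lines: group means). Means were highest at 0 h and lowest at 15 h in all 7 genes.

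The genes followed whatever they did gave these mild values. Cdk1 was 0.46, 0.39 and 0.09 at 0 h, 0.14, 0.23 and -0.04 at 8 h, -0.77, -0.04 and 0.02 at 15 h and 0.04, 0.33 and 0.19 at 24 h, and Mcm2 was 0.56, 0.45 and 0.17 at 0 h, 0.29, 0.25 and 0.10 at 8 h, -0.51, -0.23 and 0.00 at 15 h and 0.02, 0.29 and 0.40 at 24 h. Pcna was 0.56, 0.61 and 0.13 at 0 h, 0.14, 0.23 and 0.07 at 8 h, -0.77, 0.11 and -0.03 at 15 h and -0.01, 0.33 and 0.22 at 24 h, and Ccnd1 was 0.24, 0.40 and 0.24 at 0 h, 0.32, 0.19 and 0.16 at 8 h, -0.41, 0.22 and -0.03 at 15 h and -0.23, 0.00 and 0.24 at 24 h. In Cdk1, Mcm2, Pcna and Ccnd1, 15 h replicate 1 was the lowest of the 12 mild arrays. Mki67 was -0.02, 0.06 and -0.01 at 0 h, -0.05, 0.20 and -0.08 at 8 h, -0.21, -0.07 and -0.34 at 15 h and -0.08, -0.18 and -0.12 at 24 h, and Ccnb1 was 0.05, 0.01 and -0.13 at 0 h, -0.11, 0.06 and -0.08 at 8 h, -0.01, 0.13 and 0.14 at 15 h and 0.05, -0.04 and 0.08 at 24 h. Neither of these passed in any comparison.

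In the 15 h arrays the members' median was -0.38, -0.10 and -0.01, while the housekeeping median was -0.07, 0.20 and 0.01. The astrocyte marker median was -0.37, 0.00 and 0.08 in these arrays and the neural progenitor marker median -0.35, 0.08 and 0.03. Replicate 1 was thus lowest in all 4, as it was for oligodendrocyte progenitor, oligodendrocyte and endothelial markers. For microglial markers (0.26, -0.16 and 0.20) and fibroblast and meningeal markers (0.17, -0.08 and 0.00) it was the highest. For neuron and ependymal markers it lay between the other replicates. The part of that array's makeup in the members' low values was not tested.

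Because each set's divisor cancels in a change over time, the change from 8 to 24 h could be set side by side for both injuries. The severe change minus the mild change had a median of -0.14 over the members, beside -0.02 for all features, and ranged from -0.56 to 0.28. No member and no feature passed (0% of all), and no member had an unadjusted p under 0.05, beside 4.14% of all features.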

How the data were processed

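RNA of cultured rat cortical neurons was measured on 34 arrays. The authors deposited 1 linear ratio per probe and array: the values show a signal over its array's median, divided by the mean of 3 arrays. All 5984 triples of arrays were searched, and 2 of them averaged 1 at each of the 22226 probes within 1e-04, and these were taken as the divisors of 18 and 16 arrays. Background correction, software and filters are not given in the sources used here. The signal table's 34 columns match no sample's labels. They served only to find the order of that table and entered no comparison. Signal levels were therefore not used, and detection was not checked. Precision is limited by how many arrays there are.

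Probe names came from the platform annotation (13192 probes), the deposited description (8566) or the RefSeq accession (363), and 105 had none. Log2 ratios of probes of a gene were averaged. Comparisons used limma 3.58.1 (R 4.3.3, two-sided eBayes tests after lmFit, Benjamini-Hochberg over 21915 features, threshold 0.05) within a divisor set, severe comparisons on 16 arrays and the others on 18. The change between injuries used all 34 arrays. On simulated data for the severe average, 64% of changes of 0.5 and 88% of changes of 1 were recovered.

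The members, gene lists and tests were chosen with earlier results of these data known. Genes past the threshold (at most 20, with Rrm2 beside them as 1 of the mild time course calls) are given with each array of the comparison they passed, and Mki67, Cdk1, Ccnb1, Ccnd1, Pcna and Mcm2 with each array whatever they did. Of each related list up to 3 genes per direction are named, and for the controls Ccng1 and Cdkn1a were named after their values were seen. A further gene of that list is not reported here. Alternatives were quantile normalization, housekeeping centring, the chip (4, from the labels' barcodes) or the replicate number as a block, probes apart, robust eBayes, a variance filter, a fit of all arrays and leaving out each array. Correlations between same-numbered arrays ran from -0.42 to 0.26 with the compared group. Between successive severe times they ran from -0.69 to 0.60, the highest being replicates 2 and 3 at 15 h with those at 8 h. No 2 groups had every correlation over 0.1, so the replicate block is only an alternative. Figures used matplotlib 3.10.9.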

Additional observations from a re-analysis of the deposited data

Results flagged for a closer look

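Aurkb had a log2 ratio of 2.84 in the severe 0 h array, a single array that entered no comparison, against 0.05, 0.05 and -0.10 in the arrays labelled mild 48 h. It is listed because data outside the comparisons carried a signal above the 3 arrays of the divisor. With 1 array there is no replicate check. No group held 4 or more arrays, so no array was tested as an outlier.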

How the results depend on the processing

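Members called are counted against 4 in the severe average, 2, 2, 3 and 2 at severe 8, 15, 24 and 48 h, 18 between the controls, 1 at mild 0 h and 7 in the mild time course. Aurkb kept its call in every severe comparison under all alternatives run. With the chip as a block the counts were 1 at each severe time, 2 in the severe average, 0 between the controls and 3 in the mild time course. Quantile normalization gave 1 at severe 48 h, 0 between the controls, 0 at mild 0 h and 4 in the mild time course. Housekeeping centring gave 8 between the controls (3 higher, 5 lower), 0 at mild 0 h and 3 in the mild time course. It moved the median of all features to 0.14 in the severe average, -0.29 between the controls and -0.24 at mild 0 h, and it turned the controls' differences of Ccne1, Foxm1 and Kif2c to -0.092, -0.073 and -0.0020. The fit of all 34 arrays gave 4 at severe 15 h, 0 between the controls, 0 at mild 0 h and 0 in the mild time course. Fits of only the compared arrays gave 5 at severe 15 h and 1 at severe 48 h, and robust eBayes gave 1 at severe 48 h. Leaving out the less variable features gave 6 at mild 0 h and 12 in the mild time course. The replicate block gave 0 at mild 0 h (6 features) and 0 in the mild time course (13 features), and it changed no other count by over 1.5 times. No 2 groups had every correlation between same-numbered arrays over 0.1 (-0.69 to 0.60 in all), so the numbers were not taken to pair the arrays, and no block could be fitted between the controls, whose numbers differ. Leaving out each array in turn gave 1 to 2 at severe 8, 15 and 48 h, 1 to 3 at severe 24 h, 1 to 5 in the severe average, 3 to 23 between the controls, 0 to 8 at mild 0 h and 0 to 11 in the mild time course. The causes were not tested. Where no count over all features is given beside a count of members, that count stands without a background. Over all features the chip block gave 1446 calls against 3172 in the severe average, 6 against 2588 between the controls and 159 against 1046 at mild 0 h, while quantile normalization gave 2121, 18 and 34. Over 39 member calls, 383 repeats kept the call, 240 kept the direction and lost it, and 3 reversed. Fits without severe 48 h replicate 2 in the shared spread, and of only the compared arrays at each severe time, in the severe average and at mild 8 h, were chosen after seeing the data. Whether a probe was above background was not checked, so a flat gene may be an undetected one.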
